A study of Danio rerio with 20 samples.

Results

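Gluconeogenesis begins at the mitochondrial pool of oxaloacetate. Pyruvate carboxylase, for which *pcxb* is one of the zebrafish genes, makes oxaloacetate from pyruvate and so refills the citric acid cycle, and the cytosolic phosphoenolpyruvate carboxykinase encoded by *pck1* takes oxaloacetate out again and turns it into phosphoenolpyruvate. In the mammalian liver, glucagon and glucocorticoids induce *Pck1* during fasting, and insulin represses it. The expression of these 2 genes, *pck1* (ENSDARG00000013522) and *pcxb* (ENSDARG00000051939), out of 32512 genes in the count table, was followed in a zebrafish model of glucocorticoid deficiency. They were picked out by name and identifier, with earlier results of these data known.

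RNA-Seq was carried out on pools of 30 whole larvae at 5 dpf, raised at 28°C in cycles of 12 h light and 12 h dark and sampled at ZT3, ZT9, ZT15 and ZT21 (*Zeitgeber* time, ZT, counts hours from the onset of light). The 20 libraries fall into 5 conditions with 1 library per time point each, so 4 libraries per condition. Untreated larvae were wild-type siblings, *rx3 weak* or *rx3 strong* mutants, while the DEX larvae, either *rx3 strong* mutants or their wild-type siblings, were kept in medium with 25 µM dexamethasone (DEX), a synthetic glucocorticoid, and 0.1% DMSO. The labels call the controls untreated, whereas the column names and the methods describe them as kept in DMSO alone. All larvae came from pooled clutches, with the strain labelled mixed TU, AB, WIK, and the mutants carry the allele t25327 (*rx3 strong*) or t25181 (*rx3 weak*). Both mutant alleles of *rx3*, a homeobox gene needed for eye development, leave the larvae without eyes. Only the strong allele also lacks most ACTH-producing pituitary cells and has low cortisol without a daily rhythm, and *rx3 weak* larvae with their normal cortisol serve as the control for the missing eyes.

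Libraries of untreated larvae held 16427280 to 22204708 counted reads and those of DEX larvae 12586879 to 49738048. The shallowest was that of wild-type siblings at ZT3 under DEX, in which *pcxb* rested on 206 reads. In every other library both genes had at least 1205 reads. The labels name one library kit for untreated and another for DEX larvae, while the methods name only the first, so by the labels treatment and kit cannot be told apart and genotypes were compared within each set. Photoreceptor and lens transcripts matched the eyeless phenotype. All 7 of 7 genes matched by symbol were lower in both alleles than in wild-type siblings, at an edgeR adjusted p under 0.05. Of all genes 10.5% were called lower in *rx3 strong* and 7.96% in *rx3 weak* larvae. The alleles were not equal in these transcripts. All 7 were also called lower in *rx3 strong* than in *rx3 weak* larvae by edgeR, where 7.07% of all genes were. Their summed normalized counts were 177 to 231 in *rx3 strong*, 1643 to 3971 in *rx3 weak* and 50763 to 64664 in untreated wild-type siblings. The glucocorticoid target *fkbp5*, which encodes a co-chaperone of the glucocorticoid receptor, spanned 176 to 416 normalized counts in *rx3 strong* larvae, against 1666 to 4380 in wild-type siblings, and reached 18192 to 24052 in the DEX larvae of both genotypes. Because the samples were whole larvae, fewer cells of a type and less RNA per cell cannot be told apart.

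*pck1* transcript was low in *rx3 strong* larvae during the light phase. In wild-type siblings the normalized read count, the count divided by the library's size factor, was 5120 at ZT3, 4613 at ZT9, 2126 at ZT15 and 3804 at ZT21. In *rx3 weak* larvae it was 5184, 5469, 1757 and 3225 at the same times. In *rx3 strong* larvae it was 2127, 2116, 2359 and 2989. Wild-type and *rx3 weak* larvae shared the same course, with both light phase libraries high and ZT15 lowest. The 2 light phase libraries of *rx3 strong* larvae lay as low as the wild-type trough, and its highest library, at ZT21, was below the ZT21 libraries of both other genotypes. The highest library exceeded the lowest 2.41-fold in wild-type siblings, 3.11-fold in *rx3 weak* and 1.41-fold in *rx3 strong* larvae.

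*pcxb*, in contrast, was higher in *rx3 strong* larvae at every time point. Its normalized count was 3661 at ZT3, 4257 at ZT9, 3611 at ZT15 and 2217 at ZT21 in wild-type siblings. It was 4530, 4253, 3661 and 2407 in *rx3 weak* larvae and 4705, 4738, 4675 and 3416 in *rx3 strong* larvae. All 3 genotypes had their lowest value at ZT21, and the ranges of the genotypes overlapped. The highest library exceeded the lowest 1.92-fold (wild-type siblings), 1.88-fold (*rx3 weak*) and 1.39-fold (*rx3 strong*).

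**Figure D1:**
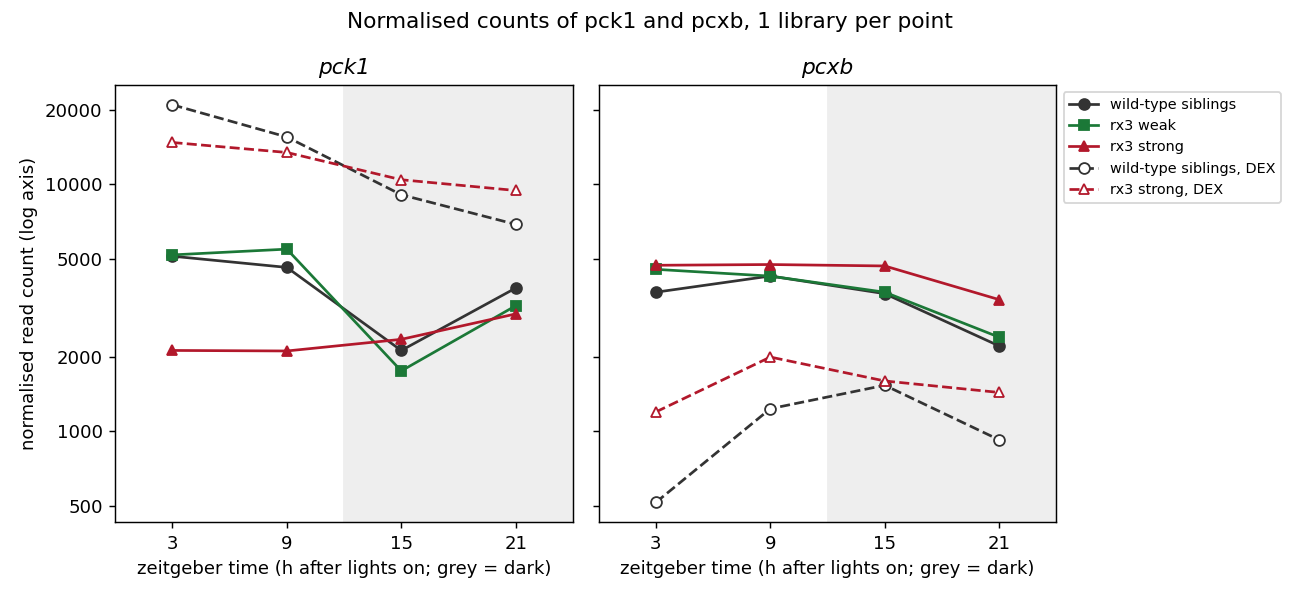
Normalized read counts of *pck1* (left) and *pcxb* (right) on a log axis against *Zeitgeber* time in hours, with the dark phase in grey; each point is 1 library, filled symbols are untreated and open symbols DEX larvae. For *pck1*, *rx3 strong* larvae lie at 2127 and 2116 at ZT3 and ZT9, where wild-type siblings have 5120 and 4613, and all DEX libraries lie above all untreated ones; for *pcxb* the order of DEX and untreated libraries is the opposite.

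Compared over the 4 time points, *pck1* was not called lower in *rx3 strong* larvae, with a log2 difference from wild-type siblings of -0.60 (SE 0.21, 95% interval -1.03 to -0.17, adjusted p = 0.0501). The test was edgeR's quasi-likelihood test with time point as a factor and p-values adjusted over all genes by the Benjamini-Hochberg method. It called 19.2% of 22078 genes in this comparison, so a call on its own is common here. *pcxb* was called higher, by 0.37 (SE 0.08, adjusted p = 0.00344), which corresponds to 1.30-fold, and was above the wild-type library at 4 of 4 time points. As time points stand in for replicates, these p-values measure the spread of the genotype difference between single libraries of different hours. The *pck1* value lies at the threshold and depends on the hours included. Without ZT15 it was -0.90 (adjusted p = 0.00175), and leaving out any other time point gave values up to -0.39 with no call. It was also called with DESeq2 size factors (adjusted p = 0.0476). The DESeq2 test (adjusted p = 0.208), limma on the deposited log2 values (adjusted p = 0.144) and edgeR with all 20 libraries (adjusted p = 0.111) did not call it. *pcxb* was not called when all 20 libraries entered the fit (adjusted p = 0.0702).

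The eyeless but cortisol-replete *rx3 weak* larvae stayed close to wild-type siblings for both genes. The log2 difference was -0.04 (SE 0.20, 95% interval -0.47 to 0.38, adjusted p = 0.926) for *pck1* and 0.10 (SE 0.08, 95% interval -0.07 to 0.27, adjusted p = 0.494) for *pcxb*, in a comparison that called 14% of all genes with edgeR, 6.08% higher and 7.96% lower. Between both eyeless alleles, *rx3 strong* minus *rx3 weak*, *pck1* differed by -0.55 (SE 0.21, adjusted p = 0.0979) and *pcxb* by 0.27 (SE 0.08, adjusted p = 0.0374), where edgeR called 12.1% of genes, 5.06% higher and 7.07% lower. *pcxb* was thus called higher in *rx3 strong* larvae than in either other genotype, and higher at 4 of 4 time points against each. The *pcxb* difference between the alleles was no longer called when ZT9, ZT15 or ZT21 was left out, with adjusted p up to 0.249.

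The *pck1* ratios differed in size and sign between single time points. *rx3 strong* larvae had 2.41-fold less *pck1* than wild-type siblings at ZT3 and 2.18-fold less at ZT9, whereas they had 1.11-fold more at ZT15 and 1.27-fold less at ZT21. Against *rx3 weak* larvae the values were 2.44-fold less at ZT3, 2.58-fold less at ZT9, 1.34-fold more at ZT15 and 1.08-fold less at ZT21. *rx3 weak* over wild-type siblings stayed between -0.27 and 0.25 on the log2 scale at all 4 time points. For *pcxb*, *rx3 strong* over wild-type siblings gave log2 ratios of 0.36, 0.15, 0.37 and 0.62 from ZT3 to ZT21.

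**Figure D2:**
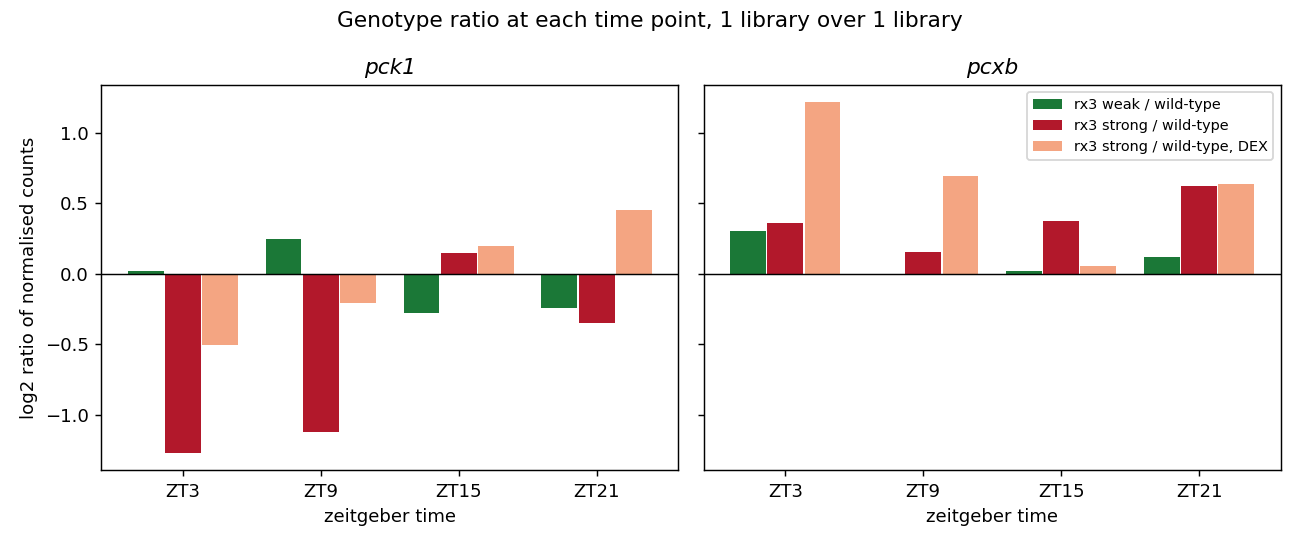
Log2 ratio of normalized counts between genotypes at each time point for *pck1* (left) and *pcxb* (right); each bar divides 1 library by 1 library and carries no error. The untreated *rx3 strong* bars of *pck1* reach -1.27 at ZT3 and -1.12 at ZT9 but 0.15 at ZT15, whereas those of *pcxb* are above 0 at all time points.

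After these values had been seen, the genotype difference was fitted apart for the light phase (ZT3 and ZT9) and the dark phase (ZT15 and ZT21). In the light phase *pck1* was lower in *rx3 strong* larvae than in wild-type siblings (log2 difference -1.20, SE 0.13, 95% interval -1.48 to -0.93, edgeR adjusted p = 5.56e-06), where 8.04% of genes were called. Compared with *rx3 weak* larvae it differed by -1.32 (SE 0.13, edgeR adjusted p = 4.52e-06), with 4.86% of genes called. In the dark phase the *pck1* difference from wild-type siblings was -0.10 (SE 0.13, 95% interval -0.37 to 0.17, edgeR adjusted p = 0.698), in a test that called 11.7% of genes, and that from *rx3 weak* larvae was 0.17 (SE 0.13, edgeR adjusted p = 0.523), with 7.05% called. *pcxb* had the reverse order of phases, with 0.25 (SE 0.11, edgeR adjusted p = 0.200) in the light and 0.49 (SE 0.11, edgeR adjusted p = 0.00607) in the dark, but its light minus dark difference of -0.24 (SE 0.15, edgeR adjusted p = 0.883) was not called.

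For *pck1* the difference between the phases was itself called by edgeR. The genotype difference in the light minus that in the dark was -1.10 (SE 0.18, adjusted p = 0.0387) against wild-type siblings, one of 11 genes called among 22078, or 0.0498%. Against *rx3 weak* larvae it was -1.49 (SE 0.18, adjusted p = 0.00889), and there *pck1* was the 1 gene called, 0.00453% of those tested. *rx3 weak* minus wild-type siblings gave 0.39 (SE 0.18, adjusted p = 1). Since the split was chosen on these *pck1* values, the p-values are too small for a test set beforehand. limma on the deposited log2 values gave the same sizes, -1.09 and -1.48, without a call (adjusted p = 0.815 and 0.902), but it called 0 of 25590 genes in either comparison. DESeq2 called both on the same split (adjusted p = 0.000661 and 1.28e-09), where it called 12 and 11 of 22078 genes. Without ZT3 or without ZT9, which leaves 1 light phase library per genotype, neither difference was called by edgeR. Against wild-type siblings the call was also lost without ZT15 (-0.86, edgeR adjusted p = 0.0551). The light phase difference from wild-type siblings ranged from -1.28 to -1.12 as single time points were left out. It was called in each of these fits, but without ZT3 or ZT9 a lone light phase library per genotype is assumed to vary like the other libraries, and the split had been chosen on these values, so the calls are no independent support.

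The harmonic regression used by the study, which sorts genes into models by the Bayesian information criterion (BIC), put the members in different models. *pck1* went to the model in which wild-type siblings and *rx3 weak* larvae share a 24 h rhythm and *rx3 strong* larvae have none, with a weight of 0.585, where at least 0.3 was asked. The next model, with a different rhythm in *rx3 strong* larvae, had 0.232. *pcxb* went to the model with the same rhythm in all 3 genotypes, with a weight of 0.459. Its next model was the one chosen for *pck1*, at 0.189. Of 19605 expressed genes 6.77% were sorted with *pck1* and 11.9% with *pcxb*. The same models were chosen with a corrected Akaike criterion, at 0.976 and 0.652, and the next for *pcxb* was again that of *pck1*, at 0.268. With 12 libraries this criterion sets a heavy penalty on models with more coefficients, such as the next *pck1* model. Its choice for *pck1* is therefore no independent support. On the variance-stabilized log2 scale *pck1* had a peak-trough amplitude of 1.29 (wild-type siblings), 1.71 (*rx3 weak*) and 0.50 (*rx3 strong*), with fitted peaks 3.82, 4.74 and 19.95 h after lights on. That of *pcxb* was 0.93, 0.86 and 0.47, with fitted peaks at 8.85, 7.62 and 8.85 h.

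Tests of the rhythms were less decisive than the model choice. A rhythm common to the untreated genotypes was called by edgeR for *pcxb* (adjusted p = 0.00466) and not for *pck1* (adjusted p = 0.0943), with 17% of genes called. The test of a rhythm difference between *rx3 strong* larvae and wild-type siblings gave *pck1* an unadjusted p of 0.0145 and an adjusted p of 1 by edgeR, in a comparison in which 0% of genes were called. In that comparison 629 of 22078 genes had an unadjusted p under 0.05, DESeq2 called 6 genes and limma 0, with neither *pck1* nor *pcxb* among those DESeq2 called. Without the filter on low counts edgeR called 79 genes of 32088, with *pck1* among them (adjusted p = 0.00198). The rhythms of *rx3 weak* larvae and wild-type siblings were called different by edgeR for 0% of genes as well, with 220 at an unadjusted p under 0.05 and 1 called by DESeq2. The amplitude difference between *rx3 strong* larvae and wild-type siblings was -0.79 for *pck1* (p = 0.5) and -0.46 for *pcxb* (p = 0.625) by the exact two-sided permutation test over 16 assignments, whose smallest p is 0.125. That test exchanged whole values, level included, between the genotypes. A difference in level therefore enters the amplitudes of the exchanged courses, and these p-values do not test amplitude alone.

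DEX larvae had more *pck1* and less *pcxb* than untreated larvae in both genotypes. Under DEX, *pck1* had 21007 normalized counts at ZT3, 15562 at ZT9, 9084 at ZT15 and 6891 at ZT21 in wild-type siblings. It had 14784, 13471, 10446 and 9450 in *rx3 strong* larvae. Both genotypes thus had their highest value at ZT3 and their lowest at ZT21, and wild-type siblings crossed from above to below *rx3 strong* larvae between ZT9 and ZT15. The lowest DEX library held more *pck1* than the highest untreated library, at 5469.

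*pcxb* under DEX had 516, 1235, 1537 and 924 normalized counts from ZT3 to ZT21 in wild-type siblings. In *rx3 strong* larvae it had 1199, 2000, 1600 and 1437. Every DEX library lay below the lowest untreated library, at 2217, and *rx3 strong* larvae were above wild-type siblings at 4 of 4 time points. The share of all genes whose DEX and untreated libraries do not overlap was not counted. The separation is therefore not shown to be particular to *pck1* or *pcxb*.

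Over the mean of the 4 libraries, *pck1* was 3.35-fold (wild-type siblings) and 5.02-fold (*rx3 strong*) higher with DEX. *pcxb* was 3.26-fold and 2.81-fold lower. A change of at least 2-fold upward was seen in 14.5% (wild-type siblings) and 16.3% (*rx3 strong*) of expressed genes, and downward in 11.4% and 11.8%. No test was made, since by the labels the kit differed between the treatments, and the part of the kit in these folds was not tested. At single time points the *pck1* ratio of DEX to untreated ranged from 1.81 at ZT21 to 4.27 at ZT15 in wild-type siblings, and from 3.16 at ZT21 to 6.95 at ZT3 in *rx3 strong* larvae.

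Within the DEX set the genotypes differed little in *pck1*. Its log2 difference, *rx3 strong* minus wild-type siblings, was -0.03 (SE 0.16, 95% interval -0.40 to 0.34, edgeR adjusted p = 0.959), where 7.91% of 22609 genes were called. For *pcxb* it was 0.63 (SE 0.18, 95% interval 0.22 to 1.03, edgeR adjusted p = 0.0698), and DESeq2 called it (adjusted p = 0.018). Of 22609 genes DESeq2 called 2351 there and edgeR 1788. With limma *pcxb* was not called (adjusted p = 0.146), where 796 of 25590 genes were. Without ZT3, the time point of the shallowest library, the *pcxb* difference was 0.43 (edgeR adjusted p = 0.200). The interaction, the genotype difference under DEX minus that without, was 0.60 (SE 0.29, 95% interval -0.02 to 1.22, adjusted p = 0.379) for *pck1* and 0.22 (SE 0.21, adjusted p = 0.753) for *pcxb* with edgeR, which called 2.31% of 22809 genes. The *pck1* difference under DEX was therefore not called as different from the untreated one. The *pck1* ratios at single time points ran from -0.51 at ZT3 over -0.21 at ZT9 and 0.20 at ZT15 to 0.46 at ZT21, on the log2 scale. Fitted by phase, *pck1* differed by -0.34 in the light (edgeR adjusted p = 0.591, 3.01% of genes called) and by 0.28 in the dark (edgeR adjusted p = 0.751, 3.21% called). The light minus dark difference of -0.62 (SE 0.29, edgeR adjusted p = 1) was not called where 0.00442% of genes were.

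The rhythms under DEX depended on the criterion used to choose a model. BIC sorted both members into the model with a rhythm in each genotype and different parameters, at weights of 0.712 for *pck1* and 0.637 for *pcxb* where at least 0.5 was asked. That model holds 23.2% of 18367 expressed genes and has 6 coefficients for 8 libraries. The corrected Akaike criterion chose no rhythm for both, at 0.654 and 0.761. Its penalty for 6 coefficients on 8 libraries nearly shuts out the model chosen by BIC, so it cannot decide between them. For *pck1* the fit gave amplitudes of 1.64 (wild-type siblings) and 0.74 (*rx3 strong*), with fitted peaks 5.98 and 5.97 h after lights on, and the difference of -0.90 had the smallest p of the exact permutation test, 0.125. *pcxb* had amplitudes of 1.64 and 0.62 (difference -1.03, exact permutation p = 0.75). As without DEX, these permutation p-values do not test amplitude alone, and *pcxb* was higher in *rx3 strong* larvae at 4 of 4 time points. edgeR called no common rhythm for *pck1* (adjusted p = 0.0651) or *pcxb* (adjusted p = 0.119), with 5.54% of genes called, whereas DESeq2 called both (adjusted p = 0.00251 and 0.0319). Of 22609 genes DESeq2 called 3462 there and edgeR 1252. With limma neither member was called (adjusted p = 0.138 and 0.166), where 150 of 25590 genes were. The rhythm difference between the genotypes under DEX was called by edgeR for 0% of genes, with 287 at an unadjusted p under 0.05 and 30 genes called by DESeq2, neither member among them.

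Set in order of their means, the 5 conditions ran in opposite directions for *pck1* and *pcxb*. For *pck1* they were wild-type siblings with DEX (13136 ± 6410 SD), *rx3 strong* with DEX (12038 ± 2505), wild-type siblings (3916 ± 1310), *rx3 weak* (3909 ± 1747) and *rx3 strong* (2398 ± 410.0), each with n = 4 time points. Neighbours in this order overlapped in range except at the step from DEX to untreated larvae, where by the labels the kit also changed. Both with and without DEX, wild-type siblings exceeded the next condition in *pck1* at only 2 of 4 time points. For *pcxb* the order was *rx3 strong* (4384 ± 646), *rx3 weak* (3713 ± 943), wild-type siblings (3436 ± 864), *rx3 strong* with DEX (1559 ± 337) and wild-type siblings with DEX (1053 ± 437). Again all neighbours overlapped except across the treatment, and the share of all genes with such a gap was not counted. Per kilobase of gene length, 1685 bases for *pck1* and 2918 for *pcxb* in the count table, the mean level of *pck1* was 2324 and that of *pcxb* 1177 in untreated wild-type siblings, but 1423 and 1502 in *rx3 strong* larvae.

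The reads of *pck1* divided by those of *pcxb* in the same library need no scaling between libraries. In wild-type siblings the quotient was 1.40 at ZT3, 1.08 at ZT9, 0.589 at ZT15 and 1.72 at ZT21, and in *rx3 weak* larvae 1.14, 1.29, 0.480 and 1.34. In *rx3 strong* larvae it was 0.452, 0.447, 0.504 and 0.875, and thus below 1 in all 4 libraries. The reads were not divided by gene length, so 1 does not mark equal transcript levels. Per kilobase, *pck1* (1774) was above *pcxb* (1170) in *rx3 strong* larvae at ZT21, and below it at ZT3, ZT9 and ZT15. The quotient was lower in *rx3 strong* larvae than in wild-type siblings at 4 of 4 time points, by a mean log2 difference of -1.03 ± 0.60 (SD, n = 4; exact permutation p = 0.125, the smallest the 16 assignments allow). Against *rx3 weak* larvae it was lower at 3 of 4 (-0.85 ± 0.73 SD, n = 4, exact permutation p = 0.25). With DEX it lay between 5.91 and 40.7 in wild-type siblings and between 6.53 and 12.3 in *rx3 strong* larvae, the largest value coming from the shallowest library. This quotient was chosen after the values of both genes were known.

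**Figure D3:**
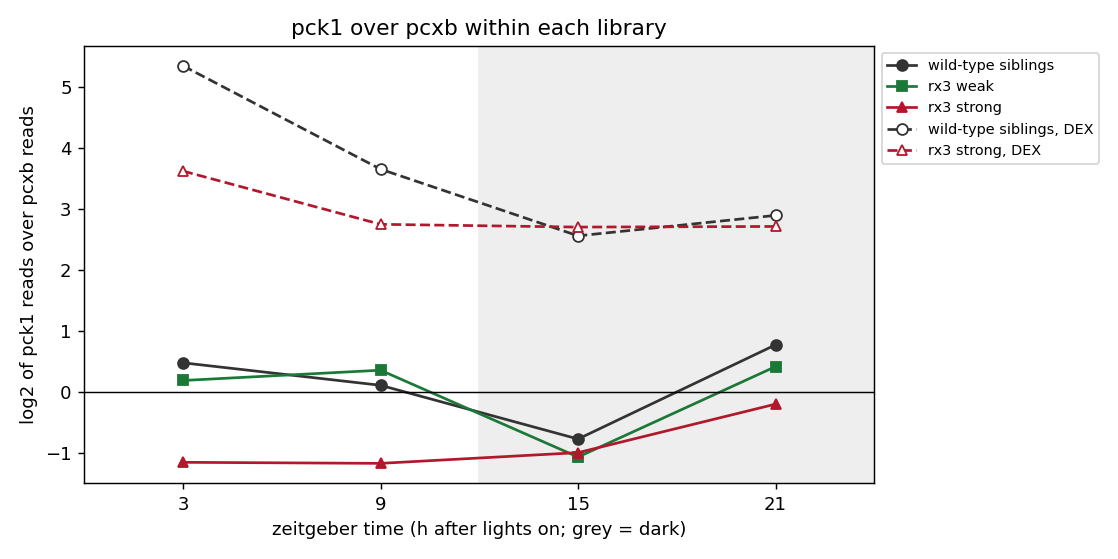
Log2 of *pck1* reads over *pcxb* reads within each library (vertical axis) against *Zeitgeber* time in hours, 1 point per library, with the dark phase in grey. Untreated *rx3 strong* larvae lie below 0 at all 4 time points, wild-type siblings and *rx3 weak* larvae only at ZT15, and all DEX libraries lie above 2.5. The reads are not divided by gene length, so 0 does not mark equal transcript levels.

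*pck1* and *pcxb* are 2 of 11 genes listed for gluconeogenesis from the study's metabolic genes, all of which were measured, and the list did not move as one. In *rx3 strong* larvae against wild-type siblings 3 of 11 were called higher and 2 lower by edgeR, with a list median of -0.14, beside 8.66% of all genes called higher and 10.5% lower and an overall median of 0.01. Those called lower were *g6pca.2* (-0.91, SE 0.14, adjusted p = 0.000148) and *g6pca.1* (-0.74, SE 0.21, adjusted p = 0.0212), both coding for the catalytic subunit of glucose-6-phosphatase, the last step that releases glucose. Those called higher were *pcxb*, *fbp1a* (0.58, SE 0.11, adjusted p = 0.000938) and *fbp2* (0.39, SE 0.09, adjusted p = 0.00468), the fructose-1,6-bisphosphatases. The other pyruvate carboxylase gene, *pcxa*, differed by 0.02 (SE 0.07), and *pck2*, the mitochondrial counterpart of *pck1*, by -0.23 (SE 0.12, adjusted p = 0.206). *fbp1b* (-0.14), *g6pc3* (-0.28) and *g6pcb* (1.23, adjusted p = 0.134) were not called either.

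Of the list, *g6pca.2* had the course most like that of *pck1*. It had 2185, 1519, 927 and 1812 normalized counts from ZT3 to ZT21 in wild-type siblings and 2616, 2039, 788 and 2170 in *rx3 weak* larvae. In *rx3 strong* larvae it had 900, 738, 670 and 987, below both other genotypes at all 4 time points. Its difference from wild-type siblings was -1.17 in the light (edgeR adjusted p = 7.96e-05), the 1 call among the 9 other list genes where 8.04% of all genes were called. In the dark it was -0.67 (edgeR adjusted p = 0.00983), where *pck1* was not called and 11.7% of all genes were. In the dark *fbp1a* (0.89) and *fbp2* (0.55) were called higher by edgeR (adjusted p = 6.38e-05 and 0.00644). For light minus dark none of the 9 was called, but only 0.0498% of all genes were called there against wild-type siblings. *pck2* had the same trough at ZT15, at 2524 in wild-type siblings and 2130 in *rx3 weak* larvae, and 2735 to 3502 in *rx3 strong* larvae.

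In *rx3 weak* larvae *fbp2* (0.47, SE 0.09, adjusted p = 0.00119) and *fbp1a* (0.35, SE 0.11, adjusted p = 0.0381) were the 2 of 11 called by edgeR, both higher, in the allele with normal cortisol. Of all genes 6.08% were called higher and 7.96% lower there. Between the alleles, *rx3 strong* minus *rx3 weak*, edgeR called *pcxb* higher and *g6pca.2* (-1.10, SE 0.14, adjusted p = 3.39e-05), *g6pca.1* (-0.70, adjusted p = 0.0370) and *g6pc3* (-0.50, adjusted p = 0.0376) lower. These are 1 and 3 of 11, beside 5.06% and 7.07% of all genes. The *g6pc3* call was lost whichever time point was left out (edgeR adjusted p from 0.0607 to 0.173), and that of *g6pca.1* was lost in some of these fits (edgeR adjusted p from 0.0126 to 0.173). Against wild-type siblings *g6pca.1* ranged from 0.0129 to 0.232 in adjusted p.

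Under DEX the list looked different. *pck2* (0.70, SE 0.13, adjusted p = 0.00948), *pcxa* (0.54, SE 0.11, adjusted p = 0.0179) and *fbp1a* (0.55, SE 0.13, adjusted p = 0.0275) were called higher in *rx3 strong* larvae and *fbp2* (-1.40, SE 0.18, adjusted p = 0.00102) lower by edgeR, 3 and 1 of 11 where 3.48% and 4.43% of all genes were. The interaction was called for *pck2* (0.91, SE 0.16, adjusted p = 0.011), *g6pca.2* (1.21, SE 0.20, adjusted p = 0.00641), *g6pca.1* (1.29, SE 0.30, adjusted p = 0.0432) and *fbp2* (-1.82, SE 0.22, adjusted p = 0.00104), beside 1.46% of genes called upward and 0.851% downward. Neither *pck1* nor *pcxb* was among them. The interaction of *g6pca.1* (edgeR adjusted p from 0.0705 to 0.119) and the DEX difference of *fbp1a* (edgeR adjusted p from 0.0533 to 0.110) were no longer called whichever time point was left out.

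**Figure D4:**
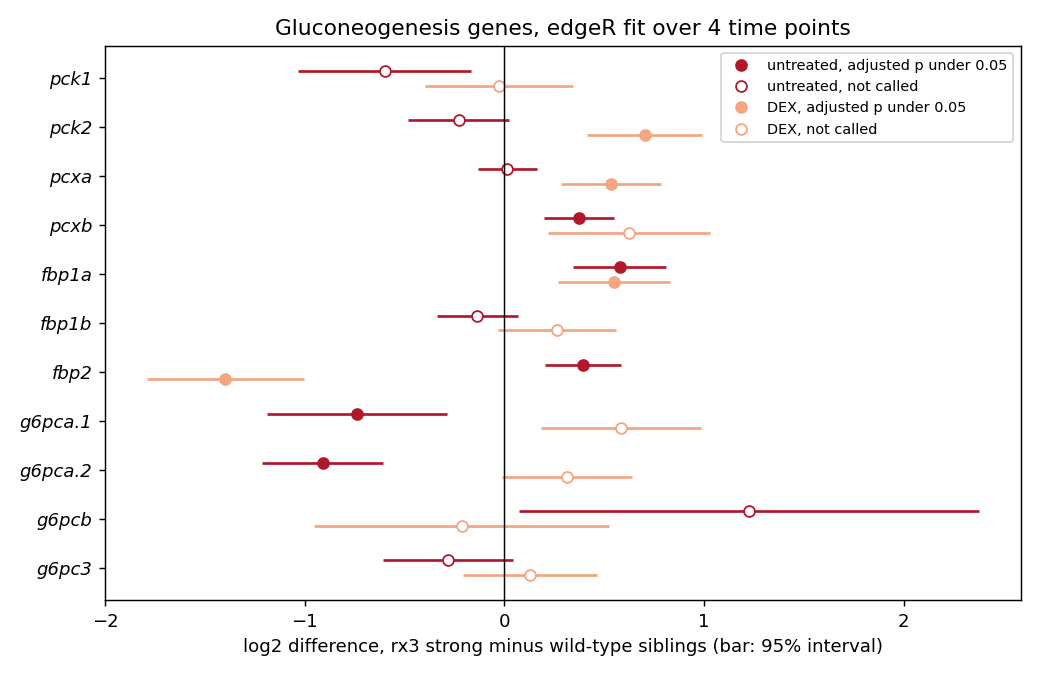
Log2 difference of *rx3 strong* minus wild-type siblings for the 11 gluconeogenesis genes over 4 time points, dark red without and light orange with DEX; bars are 95% intervals of the edgeR fit and filled points have an adjusted p under 0.05. *pck1* is open in both sets, *g6pca.1* and *g6pca.2* are filled at -0.74 and -0.91 without DEX, and *fbp2* changes from 0.39 to -1.40.

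Among 27 genes that make or use pyruvate and oxaloacetate, edgeR called 2 higher and 6 lower in *rx3 strong* larvae, with a median of -0.08, beside 8.66% and 10.5% of all genes. Of the 4 pyruvate dehydrogenase kinases listed, which restrain the entry of pyruvate into the cycle as acetyl-CoA, 2 were lower, *pdk2* with a log2 difference of -2.14 (SE 0.15, adjusted p = 2.91e-09) and *pdk4* of -0.63 (SE 0.09, adjusted p = 2.82e-05). So was *ldhbb*, a lactate dehydrogenase (-1.28, SE 0.10, adjusted p = 3.34e-08), with *pdha1b*, a pyruvate dehydrogenase subunit (-4.67, SE 0.40, adjusted p = 7.66e-08), which was also lower in *rx3 weak* larvae (-3.24) and under DEX (-4.57). *pkmb*, a pyruvate kinase, was higher (0.37, adjusted p = 0.00839), but *pkma*, also a pyruvate kinase, was lower (-0.22, adjusted p = 0.0299). The *pkma* call depended on the time points included (edgeR adjusted p from 0.0363 to 0.152 with 1 left out). The other calls were *CABZ01066502.1*, higher (0.44, adjusted p = 0.0152), and *got2a*, lower (-0.24, adjusted p = 0.0330). With 1 time point left out the edgeR adjusted p rose to at most 0.153 for *got2a*, 0.0739 for *pkmb* and 0.0556 for *CABZ01066502.1*. In *rx3 weak* larvae edgeR called 4 of 27 higher and 4 lower, beside 6.08% and 7.96% of all genes. Among them *ldhbb* (-0.52, adjusted p = 0.00119) and *pdk2* (-0.44, adjusted p = 0.0361) were lower and *pkmb* (0.37, adjusted p = 0.0119) and *CABZ01066502.1* (1.02, adjusted p = 5.09e-06) higher. So were 3 genes not called in *rx3 strong* larvae against wild-type siblings. These were *me2*, lower (-0.91, adjusted p = 8.33e-05), and *me3* (0.24, adjusted p = 0.0190) and *gpt2l* (0.26, adjusted p = 0.0182), higher. In *rx3 weak* larvae the edgeR adjusted p with 1 time point left out reached 0.181 for *pdk2*, 0.0657 for *pkmb*, 0.0868 for *me3* and 0.104 for *gpt2l*. Under DEX 5 of 27 were called higher and 1 lower, beside 3.48% and 4.43% of all genes, *ldhbb* among the higher ones (0.67, SE 0.14, adjusted p = 0.019). That adjusted p ranged from 0.0102 to 0.103 by edgeR with 1 time point left out.

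The 16 regulators matched by symbol are linked to glucocorticoids, hepatic transcription and the clock. Of these, edgeR called 3 higher and 6 lower in *rx3 strong* larvae, again beside 8.66% and 10.5% of all genes. Those called lower were *fkbp5* (-2.92, SE 0.27, adjusted p = 2.1e-07), *klf9* (-2.03, SE 0.13, adjusted p = 1.62e-09), *sgk1* (-0.47, adjusted p = 0.00251) and *tsc22d3* (-0.35, adjusted p = 0.00498). The transcription factor genes *cebpd* (-0.64, adjusted p = 0.000136) and *nr1d2a* (-0.73, adjusted p = 0.000234) were also lower, while *cebpa* (0.39, adjusted p = 0.00304), *cebpb* (0.60, adjusted p = 0.00664) and *tat*, a tyrosine aminotransferase (0.54, adjusted p = 0.00523), were higher. In *rx3 weak* larvae 1 of the 16 was called, *tat* (0.46, adjusted p = 0.018), where 14% of all genes were. Under DEX 0 were higher and 2 lower by edgeR, beside 3.48% and 4.43% of all genes, *klf9* (-0.57, adjusted p = 0.0301) and *cebpb* (-0.92, adjusted p = 0.0441).

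Tissue markers moved with the genotype beside *pcxb* and *pck1*, and their part in these results was not tested. Of 10 liver genes, liver being a main site of gluconeogenesis, 7 were called higher and 0 lower in *rx3 strong* larvae by edgeR, beside 8.66% and 10.5% of all genes, with a median of 0.44, and their summed normalized counts were 154824 to 171881 against 88259 to 131480 in wild-type siblings and 95226 to 154138 in *rx3 weak* larvae. The copper carrier gene *cp* led them (1.22, SE 0.11, adjusted p = 9.21e-08), whereas *fabp10a*, the defining fatty acid binding protein of zebrafish liver, differed by 0.17 (SE 0.09, adjusted p = 0.224). The liver calls and sums include *apoa1a* (0.84, edgeR adjusted p = 0.000661). In younger embryos the paper reports *apoa1* expression widened in the telencephalon, a brain region, of *rx3 strong* mutants only, so this gene is not a marker of liver alone here. Of 3 kidney tubule genes 1 was called higher, with sums of 2877 to 3112 against 2588 to 2950 in wild-type siblings. In *rx3 weak* larvae all 3 of these were called higher, where 6.08% of all genes were, with sums of 3274 to 3821. *rx3 strong* minus *rx3 weak* had 1 of the 3 called lower, where 7.07% of all genes were. Of the 2 intestinal genes matched, *fabp2* was lower (-0.81, SE 0.08, adjusted p = 4.01e-07) and the other was not called. Under DEX 1 of 10 liver genes was called higher, where 3.48% of all genes were, but the median difference of the list was 0.41, close to the 0.44 without DEX. No gene on these marker lists was at 0 in every library of a condition.

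The genes with the course most like *pck1* over the 12 untreated libraries, by Pearson's r of log2 normalized counts among 14775 genes with a symbol, were *acss1* (r = 0.914), *got1* (0.889), *akr1b1* (0.886), *g6pca.2* (0.885) and *SGPL1* (0.883). Over the 8 DEX libraries the r of *akr1b1*, *g6pca.2* and *SGPL1* with *pck1* was 0.622, 0.588 and 0.807, whereas it was -0.129 for *acss1* and -0.565 for *got1*. For *pcxb* they were *ACTC1* (0.974), *GNPDA1* (0.964), *ugt1b2* (0.964), *CPZ* (0.959) and *slc34a2b* (0.957), of which *ugt1b2* had an r of 0.850 in the DEX libraries and the other 4 had between -0.126 and 0.186. *pck1* and *pcxb* themselves had an r of -0.11 over the untreated and -0.39 over the DEX libraries. These values are descriptions, because the points share genotype, hour and library scaling.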

How the data were processed

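RNA-Seq of whole larvae was available for 20 libraries. Per the methods, the authors aligned reads to the Zv9 genome with STAR and counted uniquely mapped reads per Ensembl gene with HTSeq, without pooling libraries, and the deposited counts are these raw counts. The deposited log2 values are the authors' variance-stabilized counts from DESeq2 and served only for limma. Replicate numbers 1 to 4 stand for ZT3, ZT9, ZT15 and ZT21, which are a shared time of sampling, so time point entered every level fit as a factor.

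Levels were compared with edgeR 4.0.16 (quasi-likelihood test, TMM scaling, filterByExpr) in R 4.3.3, with the 12 untreated libraries together, the 8 DEX libraries alone, and 16 libraries for the interaction. Adjusted p-values cover all genes tested and were called under 0.05. Rhythms were tested with a cosine and a sine term of 24 h, and models (15 untreated, 5 DEX) were chosen by BIC on variance-stabilized counts. The largest model has 9 coefficients for 12 untreated libraries. Printed levels are counts divided by DESeq2 1.42.0 size factors over all 20 libraries. The alternatives were DESeq2's size factors and test, no filter, limma 3.58.1, other sets of libraries, no time factor and leaving out each time point. Scripts were tested on simulated data.

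Named were both members, the measured gluconeogenesis genes, called genes of each other list, and the 5 genes with the highest r to each member at a mean of at least 50 counts. For some lists more than the planned 8 called genes were named. Listed genes with no match by symbol were left out and may still be among the counted genes. Matched were 16 of 21 regulators, 10 of 12 liver, 3 of 5 kidney tubule, 2 of 4 intestinal and 7 of 9 photoreceptor and lens genes. Members and lists were chosen with earlier results of these data known, and the light and dark split, the quotient of both genes and the ratio of DEX to untreated were chosen after seeing the data. Depth was 16427280 to 22204708 reads per untreated library and 12586879 to 49738048 per DEX library, and counting error is only one part of the spread. Sequences and coordinates were not used here.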

Additional observations from a re-analysis of the deposited data

Results flagged for a closer look

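In untreated *rx3 strong* larvae the *pcxb* library at ZT21 (3416 normalized counts) lay far below the other three (4675 to 4738). On the variance-stabilized log2 scale the gap was 0.946 of the whole range, where Dixon's limit for 4 values is 0.829. ZT21 was also the lowest *pcxb* library of wild-type siblings (2217) and *rx3 weak* larvae (2407). Of 10 groups checked, this was the 1 past the limit. Chance passes it in about 1 of 20 groups of 4 like values, whereas the 4 values here come from different hours.

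The *pck1* difference of *rx3 strong* larvae was called by edgeR as differing between light and dark. Against wild-type siblings the light minus dark value was -1.10 on the log2 scale (edgeR adjusted p = 0.0387), and against *rx3 weak* larvae it was -1.49 (edgeR adjusted p = 0.00889). Both come from a split chosen after these values had been seen. Neither was called with limma (adjusted p = 0.815 and 0.902), which called 0 of 25590 genes in either comparison, or by edgeR without ZT3 or without ZT9. DESeq2 called both on the same split (adjusted p = 0.000661 and 1.28e-09).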

How the results depend on the processing

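Of 261 alternative values for 45 results, 218 were counted as unchanged, 17 lost the call, 19 gained it, 5 changed sign and 2 changed the model. Unchanged meant the same side of the threshold and, for values that have a sign, the same sign. For model choices it meant the same model, and for lists a similar count of called genes. Many of the 45 results were not called in the main fit, and for these unchanged meant still not called. A call could be lost only where the main fit had made one, so the 17 losses are not a share of all 261. For the other named genes, 769 alternatives of 73 called results left 588 called and 181 not, with no change of sign; *g6pca.1* lost its calls in 17 of 31, *g6pc3* in 7 of 11 and *fbp1a* in 12 of 32. Where no value is given for it, the cause was not tested. *pck1* in *rx3 strong* minus wild-type siblings was called with DESeq2 size factors (-0.60, adjusted p = 0.0476), without the filter (-0.60, adjusted p = 0.00069) and with only these 2 groups (-0.66, adjusted p = 0.0132), and minus *rx3 weak* without the filter (-0.56, adjusted p = 0.00243). Against wild-type siblings *pck1* stayed uncalled by the DESeq2 test (-0.60, adjusted p = 0.208), by limma (-0.64, adjusted p = 0.144) and with all 20 libraries (-0.58, adjusted p = 0.111). *pcxb* was not called against wild-type siblings with all 20 libraries (0.39, adjusted p = 0.0702), nor against *rx3 weak* with limma (0.27, adjusted p = 0.082), all 20 libraries (0.27, adjusted p = 0.283) or only these 2 groups (0.27, adjusted p = 0.108). Under DEX *pcxb* was called without the filter (0.62), by DESeq2 (0.63) and with all 20 libraries (0.61), and in the light phase without the filter (0.98) and by DESeq2 (0.95). With limma *pcxb* was called in neither (0.65 and 0.95). Rhythms gained a call for *pck1* without the filter (0.91 untreated, 1.61 for *rx3 strong* against wild-type siblings, 1.17 under DEX) and by DESeq2 under DEX (1.19), and for *pcxb* by DESeq2 under DEX (1.08). None of these rhythms was called with limma. The light minus dark difference of *pck1* lost its call with limma (-1.09 and -1.48), which called 0 genes in either comparison. The corrected Akaike criterion moved the DEX models to no rhythm (0.654 and 0.761).

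Time points were the replicate block. Without the block *pcxb* differed by 0.35 from wild-type siblings (adjusted p = 0.369) and 0.25 from *rx3 weak* (adjusted p = 0.644), so that both level calls of the members were lost, while the other 8 of 10 values were called in neither fit. Genes called in *rx3 strong* minus wild-type siblings fell from 4229 to 2078 without the block and to 2673 with all 20 libraries.

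Leaving out 1 time point gave *pck1* -0.90 to -0.39 against wild-type siblings and -0.92 to -0.29 against *rx3 weak*, each called only without ZT15, and -0.15 to 0.027 for *rx3 weak* against wild-type siblings, above 0 without ZT15 (0.02) or ZT21 (0.027). *pcxb* ranged from 0.29 to 0.45 and from 0.19 to 0.34. Under DEX *pck1* ranged from -0.15 to 0.12, above 0 without ZT3 (0.12) or ZT9 (0.04), and *pcxb* from 0.43 to 0.83, called without ZT15. In the dark *pck1* ranged from -0.36 to 0.16, above 0 without ZT21, and *pcxb* from 0.38 to 0.61, lost without ZT21. Light minus dark of *pck1* ranged from -1.36 to -0.86 and from -1.77 to -1.22, and *pcxb* in the light under DEX from 0.69 to 1.24, called without ZT15 or ZT21.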
